A study of Mus musculus with 16 samples.

Results

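The angiopoietin-Tie system was examined here through 6 genes, Angpt1, Angpt2, Angptl4, Tek, Tie1 and Ptprb, each chosen by its symbol among 37003 genes of a count table from sorted mouse brain endothelial cells (bECs). Each symbol matched 1 row, and all 6 members passed the filter on low counts that left 31085 genes for testing. The study asked how endothelial YAP and TAZ, transcriptional co-activators encoded by Yap1 and Wwtr1, shape the bEC transcriptome after ischemic stroke. There were 16 libraries, each a pool of mice: 4 per operation (sham or MCAo) from control animals (CTRL) and 4 per operation from animals with both genes deleted in endothelium (YT-iKO). The brains were taken 72 hours after a sham operation or after 30 minutes of middle cerebral artery occlusion (MCAo).

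The YT-iKO genotype was Pdgfb-iCreERT2+/-:Yapfl/fl:Wwtr1fl/fl. The littermates called CTRL were Pdgfb-iCreERT2+/+:Yapfl/fl:Wwtr1fl/fl, where +/+ stands for the wild-type locus without the deleter transgene. Both genotypes therefore carried the floxed alleles and both received tamoxifen as adults. The Pdgfb promoter directs the recombinase to endothelial cells, so the deletion is not limited to brain vessels. Both sexes were used and their share in each pool is not given in the sources used here. The tissue after MCAo was the territory of the occluded artery and the matching area of the other hemisphere was dissected too. Whether both areas entered 1 library is not given in the sources used here. Cells were enriched on CD31 and sorted as DAPI-, CD45- and CD31+.

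Angiopoietins are secreted ligands of the receptor tyrosine kinase Tie2, encoded by Tek. Angpt1, made mostly by perivascular cells, activates Tie2 and keeps endothelial junctions closed, whereas Angpt2, released by activated endothelial cells, often acts as its context-dependent antagonist. Tie1 binds no angiopoietin with high affinity and modulates Tie2 as a partner, and Ptprb encodes VE-PTP, an endothelial phosphatase that removes phosphate from Tie2. Angptl4 belongs to the related angiopoietin-like family, does not signal through Tie2, and is known as an inhibitor of lipoprotein lipase.

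In GRCm38 with GENCODE M21, Angpt1 lies at chr15:42424723-42676977 on the minus strand and Angpt2 at chr8:18690263-18741562 on the minus strand. Angptl4 is at chr17:33773750-33781830 on the minus strand and Ptprb at chr10:116275523-116389535 on the plus strand. The receptor genes are on the same chromosome, Tek at chr4:94739289-94874976 on the plus strand and Tie1 at chr4:118471191-118490061 on the minus strand. The whole body of Angpt2 lies inside Mcph1, which is transcribed from the other strand and shares no exonic bases with it, and Angpt1 shares exonic bases with Gm17473, also on the other strand. How the counting treated strand is not given in the sources used here, so reads from the exonic bases shared by Angpt1 and Gm17473 cannot be told apart. Mcph1 had 10.8 to 20.4 CPM (counts scaled by library size), with a log2 fold change after sham of -0.35 (95% interval -0.75 to 0.04, adjusted p = 0.990 by edgeR), and Gm17473 averaged 0.308 CPM.

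RefSeq promoter windows of GRCm38.p6, 250 bases before to 50 after a start, matched 2 of the 6 members, Tek and Tie1. The bases before the Tek start, chr4:94739039-94739288 on the plus strand, are printed because Tek is the receptor against which the other members are compared below.

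Tek: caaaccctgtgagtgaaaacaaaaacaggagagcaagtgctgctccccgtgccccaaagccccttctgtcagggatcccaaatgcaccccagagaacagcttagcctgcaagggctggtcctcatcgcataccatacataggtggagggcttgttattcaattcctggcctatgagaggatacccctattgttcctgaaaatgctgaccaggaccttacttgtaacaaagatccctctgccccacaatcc

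The letters of 3 motifs were looked for on both strands of the windows of Tek and Tie1, GGAATG for TEAD, the DNA-binding partner of YAP and TAZ, GTAAACA for FOXO and ACGTG for the hypoxia response. None of the 3 was found in either window, so no base is in capitals, and 14.7%, 3.65% and 19.6% of the 32851 windows in the table held them. This is a statement about these letters in these windows only.

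The libraries held 11418262 to 23074547 counts. Values below are CPM scaled by TMM factors from all tested genes, and a gene was called where edgeR's quasi-likelihood test gave an adjusted p under 0.1. Receptor genes of smell, vomeronasal organ and taste, which bECs are not known to use, carried an even background of 0.0413 to 0.421 CPM per kilobase of exon, lowest in YT-iKO MCAo replicate 4 and highest in YT-iKO sham replicate 3 and YT-iKO MCAo replicate 2. The TMM factors ran from 0.743 in CTRL MCAo replicate 1 to 1.40 in YT-iKO MCAo replicate 2. Results are also given where abundant-gene factors, computed from genes averaging 10 CPM or more, change a call or its interval. Those factors moved the median log2 fold change of all tested genes from 0.11 to 0.30 in YT-iKO against CTRL after sham, from 0.03 to 0.08 after MCAo, and from 0.07 to 0.21 for MCAo in CTRL. Endothelial markers summed to 8745 to 19342 CPM, pericyte markers to 497 to 1497 CPM and microglial markers to 3.37 to 20.3 CPM. Amplified reads without molecular identifiers can be copies of 1 molecule, and in such bulk samples fewer cells of a type cannot be told apart from less RNA per cell.

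The deleted genes were lower in YT-iKO, which checks the labels. Yap1 had a log2 fold change of -1.18 after sham (SE 0.22, adjusted p = 0.0371 by edgeR) and -1.17 after MCAo (SE 0.22, adjusted p = 0.0478). Wwtr1 had -1.88 both after sham (SE 0.28, adjusted p = 0.00381) and after MCAo (SE 0.28, adjusted p = 0.00356).

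Per kilobase of exon, the members fell into 3 genes at high levels and 3 at lower ones. Averaged over the 16 libraries, Ptprb reached 308 CPM per kilobase, Tek 219 and Tie1 112. Angpt2 reached 7.21 CPM per kilobase, Angptl4 5.08 and Angpt1 0.371. In all 16 libraries Tek was above Tie1, by 1.70 to 2.47 times, Tie1 above Angpt2, by 9.57 to 32.3 times, and Angptl4 above Angpt1. Ptprb was above Tek in 15 of 16 libraries and Angpt2 above Angptl4 in 13 of 16, so these neighbours in the order were not separated in every library. The receptors and the phosphatase were thus the strongly expressed part of the system in these cells, and both ligands were weakly expressed.

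**Figure D1:**
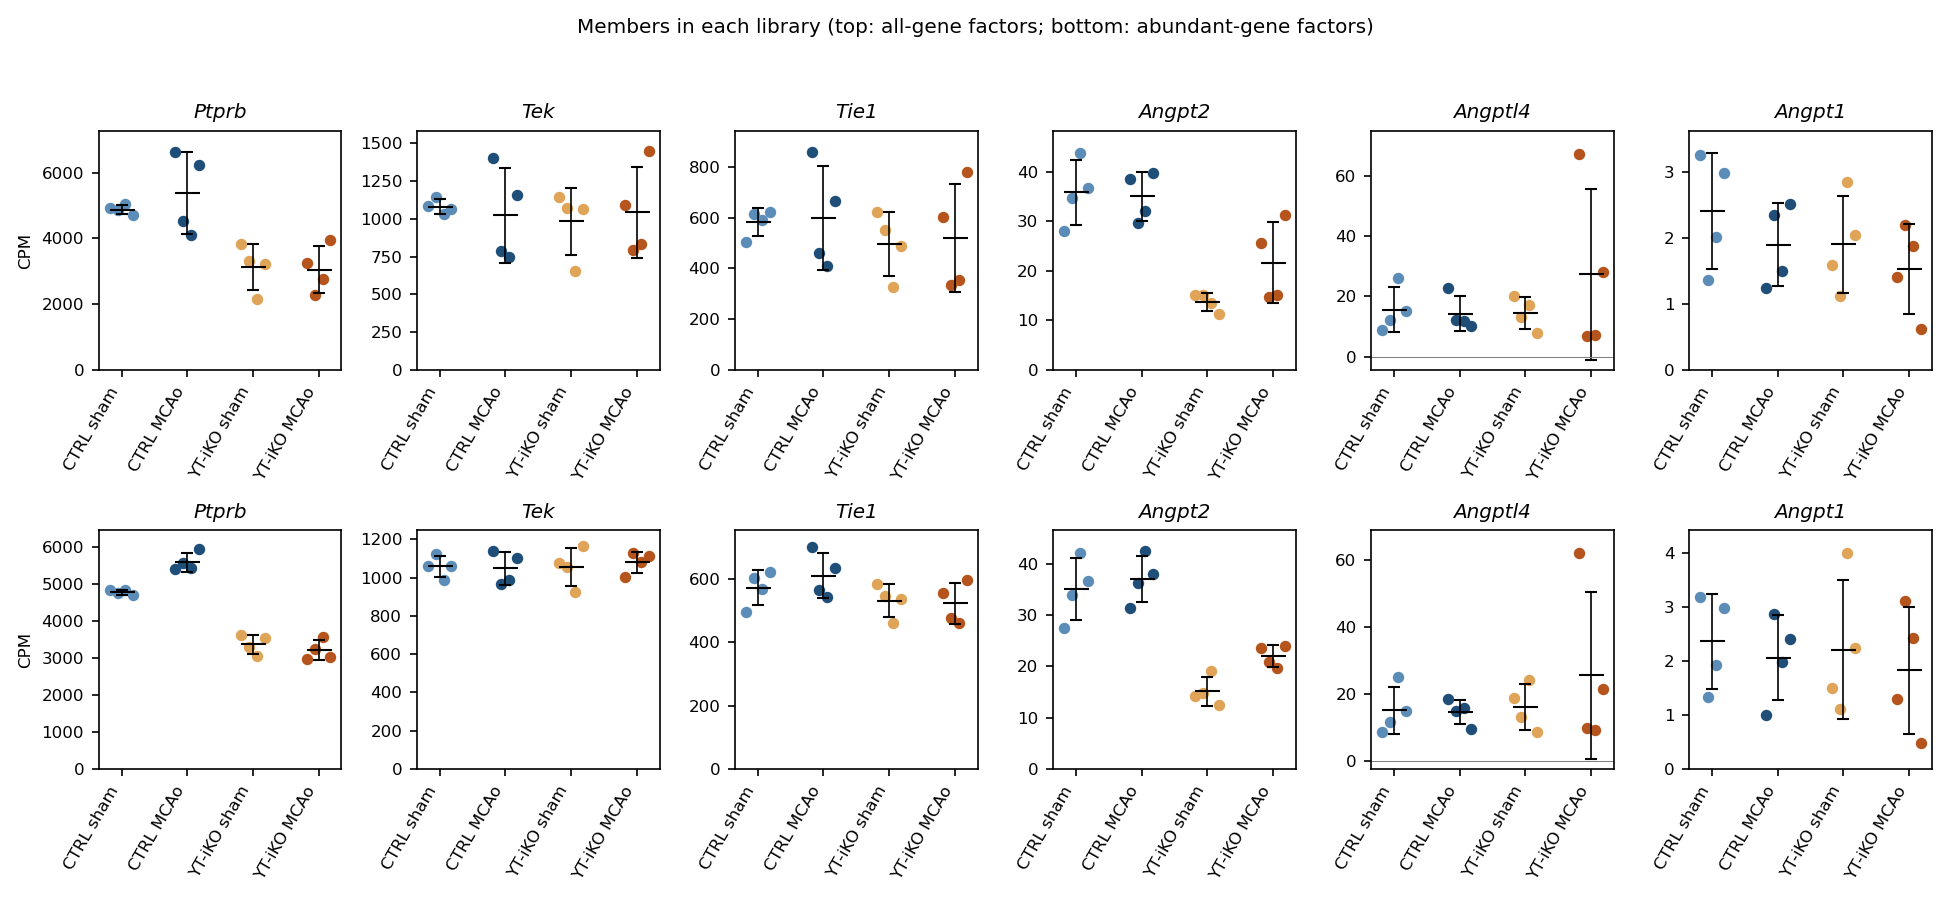
CPM of each member (y axis, linear from 0) in the 16 libraries by group (x axis), with points for libraries and bars for the mean ± SD of 4. The top row uses TMM factors from all tested genes and the bottom row abundant-gene factors; Angpt2 and Ptprb sit lower in YT-iKO, and on the bottom row all Tek values lie between 923 and 1165 CPM.

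Angpt2, the ligand made by endothelial cells, was lower in YT-iKO after sham. In CTRL sham it measured 28.0, 34.7, 43.9 and 36.8 CPM, and in YT-iKO sham 15.1, 15.1, 13.6 and 11.3 CPM. Every YT-iKO sham library was below every CTRL sham library. The means were 35.9 ± 6.54 CPM and 13.8 ± 1.78 CPM (SD, n = 4 each). The log2 fold change was -1.38 (SE 0.23, 95% interval -1.86 to -0.89), or 0.385 of the CTRL level, with an adjusted p of 0.0150 by edgeR. Angpt2 was the 1 member of 6 called in this comparison, in which 0.0965% of all tested genes were called. The call was lost when YT-iKO sham replicate 4 was left out, where the log2 fold change was -1.30 and the adjusted p 0.161. On log2(CPM + 1) the exact permutation test, two-sided, gave p = 0.0286, the smallest that 70 assignments allow. The even background made up 4.13% to 11.4% of the Angpt2 counts in YT-iKO sham and less than that in every CTRL library, and with it taken off the values were 27.3 to 43.3 CPM in CTRL and 10.5 to 14.5 CPM in YT-iKO. The study named Angpt2 from these same libraries, so its direction here is not independent evidence.

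After MCAo the Angpt2 difference between genotypes was not called. CTRL MCAo libraries had 38.7, 29.6, 32.1 and 39.8 CPM, and YT-iKO MCAo libraries 25.7, 14.7, 15.2 and 31.3 CPM. YT-iKO MCAo replicate 4 was above CTRL MCAo replicate 2, so the groups overlapped. The difference was -0.69 on the log2 scale (SE 0.23, 95% interval -1.17 to -0.21), with an adjusted p of 1.00 by edgeR, and the exact permutation test gave p = 0.0571. No member was called, against 0.0708% of all tested genes. With abundant-gene factors the groups no longer overlapped, at 31.4 to 42.4 CPM in CTRL MCAo and 19.6 to 24.0 CPM in YT-iKO MCAo, and the log2 fold change of -0.74 was called (adjusted p = 0.0206 by edgeR). Averaged over both operations, Angpt2 had a log2 fold change of -1.03 (SE 0.16, adjusted p = 0.00266 by edgeR), 1 of 6 members was called against 0.280% of all genes, and this call was kept whichever library was left out.

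In CTRL, Angpt2 showed no detectable response to MCAo. Its log2 fold change was -0.03 (95% interval -0.51 to 0.44, adjusted p = 1.00 by edgeR), and with abundant-gene factors it was 0.08. In YT-iKO the values after MCAo were higher on average, with a log2 fold change of 0.65 (95% interval 0.17 to 1.14) and an adjusted p of 0.802 by edgeR. With abundant-gene factors YT-iKO MCAo at 19.6 to 24.0 CPM lay above YT-iKO sham at 12.4 to 19.1 CPM without overlap, and the log2 fold change of 0.55 was called (adjusted p = 0.0872 by edgeR). The test of the difference between the responses gave a log2 difference of 0.69 (95% interval 0.01 to 1.36), with an adjusted p of 1.00 by edgeR, so a higher response of Angpt2 in YT-iKO than in CTRL was not shown.

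Angpt1, the Tie2 agonist, was at the edge of detection. Its counts ran from 10 to 51 per library, and its level from 0.623 to 3.26 CPM. The even background alone would give 32.0% to 111% of these counts, with a median of 61.4%. With the background taken off, CTRL sham held 0.230 to 2.19 CPM and YT-iKO MCAo 0.00537 to 0.520 CPM. Between genotypes its log2 fold change was -0.34 after sham (95% interval -1.25 to 0.56) and -0.32 after MCAo (95% interval -1.23 to 0.60), and neither was called. The ratio of Angpt2 to Angpt1 per kilobase was 12.1 to 35.8 in CTRL sham, 17.8 to 43.9 in CTRL MCAo, 6.73 to 18.9 in YT-iKO sham and 9.43 to 71.0 in YT-iKO MCAo. These ranges overlap in all 4 pairs of groups compared, and the denominator is the gene near background.

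**Figure D2:**
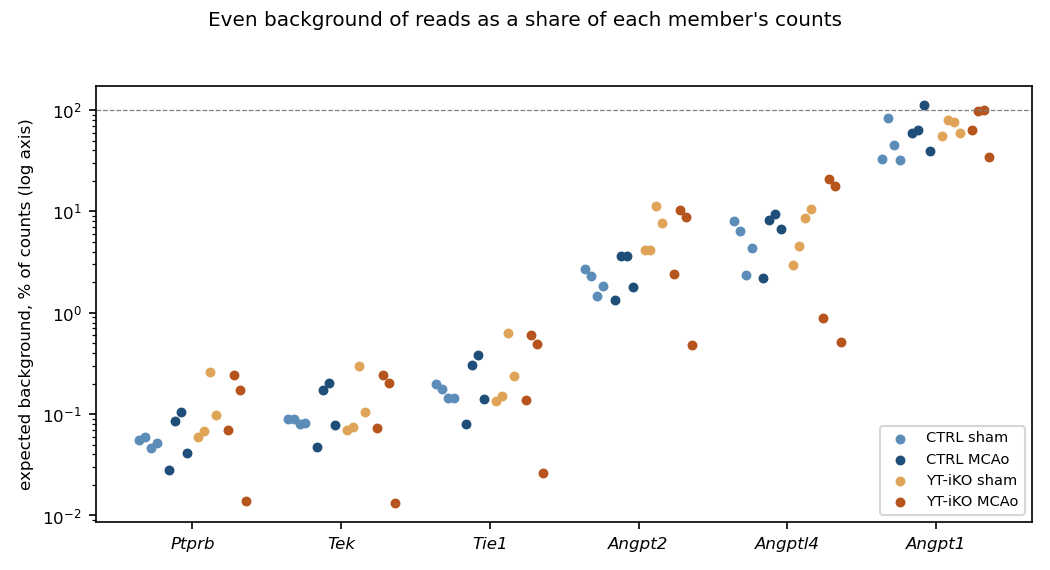
Counts expected from an even background of reads, as a percent of each member's counts (y axis, log scale), for the 6 members (x axis) with 1 point per library in the colour of its group. Angpt1 lies between 32.0% and 111%, while Ptprb, Tek and Tie1 stay below 1%; the dashed line marks 100%.

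Tek, the receptor Tie2, showed no detectable difference by genotype or operation. CTRL sham libraries had 1083, 1144, 1031 and 1061 CPM and YT-iKO sham libraries 1142, 1068, 657 and 1061 CPM. YT-iKO sham replicate 3, which has the highest background, stood apart, and the part of the background in this value was not tested. After MCAo the values were 1404, 789, 746 and 1158 CPM in CTRL and 1088, 794, 833 and 1451 CPM in YT-iKO. YT-iKO differed from CTRL by -0.14 on the log2 scale after sham (95% interval -0.70 to 0.43) and 0.02 after MCAo (95% interval -0.54 to 0.59). With abundant-gene factors the intervals narrowed to -0.20 to 0.19 after sham and -0.15 to 0.23 after MCAo. The MCAo response was -0.08 in CTRL (95% interval -0.64 to 0.49) and 0.08 in YT-iKO (95% interval -0.48 to 0.65).

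Tie1, the partner receptor, was measured at 505, 614, 591 and 622 CPM in CTRL sham and 621, 553, 327 and 487 CPM in YT-iKO sham. After MCAo it was at 860, 462, 409 and 664 CPM in CTRL and 603, 335, 356 and 780 CPM in YT-iKO. All 4 groups overlapped. Between genotypes the log2 fold change was -0.23 after sham (95% interval -0.85 to 0.39) and -0.21 after MCAo (95% interval -0.82 to 0.41), neither of them called. The MCAo response was 0.04 in CTRL (95% interval -0.58 to 0.66) and 0.06 in YT-iKO (95% interval -0.56 to 0.68). With abundant-gene factors the genotype difference after MCAo was -0.22 (95% interval -0.46 to 0.01).

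Ptprb, the phosphatase of Tie2, was lower in each YT-iKO library than in any CTRL library but was not called on the scale of all genes. CTRL sham libraries had 4922, 4855, 5037 and 4698 CPM, and YT-iKO sham libraries 3828, 3324, 2164 and 3214 CPM. CTRL MCAo libraries had 6631, 4543, 4100 and 6227 CPM, and YT-iKO MCAo libraries 3239, 2285, 2757 and 3939 CPM. The genotypes did not overlap after either operation. Its log2 fold change was -0.64 after sham (SE 0.29, 95% interval -1.23 to -0.05, adjusted p = 0.990 by edgeR) and -0.82 after MCAo (SE 0.29, 95% interval -1.41 to -0.22, adjusted p = 1.00). On average over operations it was -0.73 (SE 0.20, 95% interval -1.15 to -0.31), with an adjusted p of 0.329 by edgeR. The exact two-sided permutation test gave p = 0.0286 after sham and after MCAo, and p = 0.000408 for the average, the smallest its 4900 assignments allow. With 1 library left out, the exact test rose to p = 0.0571 after sham without any one of CTRL sham replicates 1 to 4, with differences of -0.69 to -0.65 on the log2(CPM + 1) scale. After MCAo the same exact test gave p = 0.0571 without replicate 1, 2 or 4 of CTRL MCAo and without replicate 2 or 3 of YT-iKO MCAo, with differences of -0.89 to -0.68. Fewer assignments remain with a library left out, so this p moves in coarser steps, and the genotypes still did not overlap. The study's gene lists from these libraries also hold Ptprb, so its direction is not independent evidence either.

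The call of Ptprb depended on the processing. With abundant-gene factors CTRL libraries held 4691 to 5938 CPM and YT-iKO libraries 2982 to 3605 CPM, and Ptprb was called after sham (log2 fold change -0.51, SE 0.10, adjusted p = 0.0614 by edgeR), after MCAo (-0.80, SE 0.10, adjusted p = 0.000818) and on average (-0.65, SE 0.07, adjusted p = 6.47e-05). In these fits 2 of 6 members, Ptprb and Angpt2, were called in each of the 3 genotype comparisons, where 0.392%, 0.582% and 1.79% of all tested genes were called. The even background was at most 0.259% of the Ptprb counts in any library. DESeq2 called Ptprb after MCAo and on average, beside 0.211% and 0.581% of all genes. Leaving out single libraries kept the average log2 fold change between -0.80 and -0.67 on the scale of all genes, with an adjusted p of 0.103 to 1.00. With all-gene factors endothelial markers summed to 16538, 16951, 16817 and 15651 CPM in CTRL sham and 16539, 13282, 9546 and 13009 CPM in YT-iKO sham, 3 of which lie below every CTRL sham library. After MCAo these sums overlapped, at 11565 to 19342 CPM in CTRL and 8745 to 17650 CPM in YT-iKO. With abundant-gene factors the sums were 15628 to 16608 CPM in CTRL sham and 13112 to 15577 CPM in YT-iKO sham, without overlap, and 15106 to 17168 CPM in CTRL MCAo and 12410 to 15135 CPM in YT-iKO MCAo, which overlapped. Of 56 markers in 12 cell type lists none was called between genotypes with all-gene factors. With abundant-gene factors the endothelial markers Slco1c1 (log2 fold change -0.63 after MCAo, adjusted p = 0.0390 by edgeR, and -0.59 on average, adjusted p = 0.00171) and Erg (-0.24 on average, adjusted p = 0.0551) were called lower in YT-iKO. The part of these markers in the Ptprb difference was not tested.

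The MCAo response of Ptprb was 0.14 in CTRL (95% interval -0.45 to 0.73) and -0.04 in YT-iKO (95% interval -0.63 to 0.55), and the test of their difference gave -0.18 (95% interval -1.01 to 0.66). With abundant-gene factors that difference was -0.29 (95% interval -0.60 to 0.01, adjusted p = 1.00 by edgeR). On that scale CTRL MCAo libraries, at 5388 to 5938 CPM, lay above CTRL sham libraries, at 4691 to 4830 CPM, without overlap, and the MCAo response in CTRL was 0.22 (95% interval 0.0055 to 0.44, adjusted p = 0.638 by edgeR), which was not called.

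**Figure D3:**
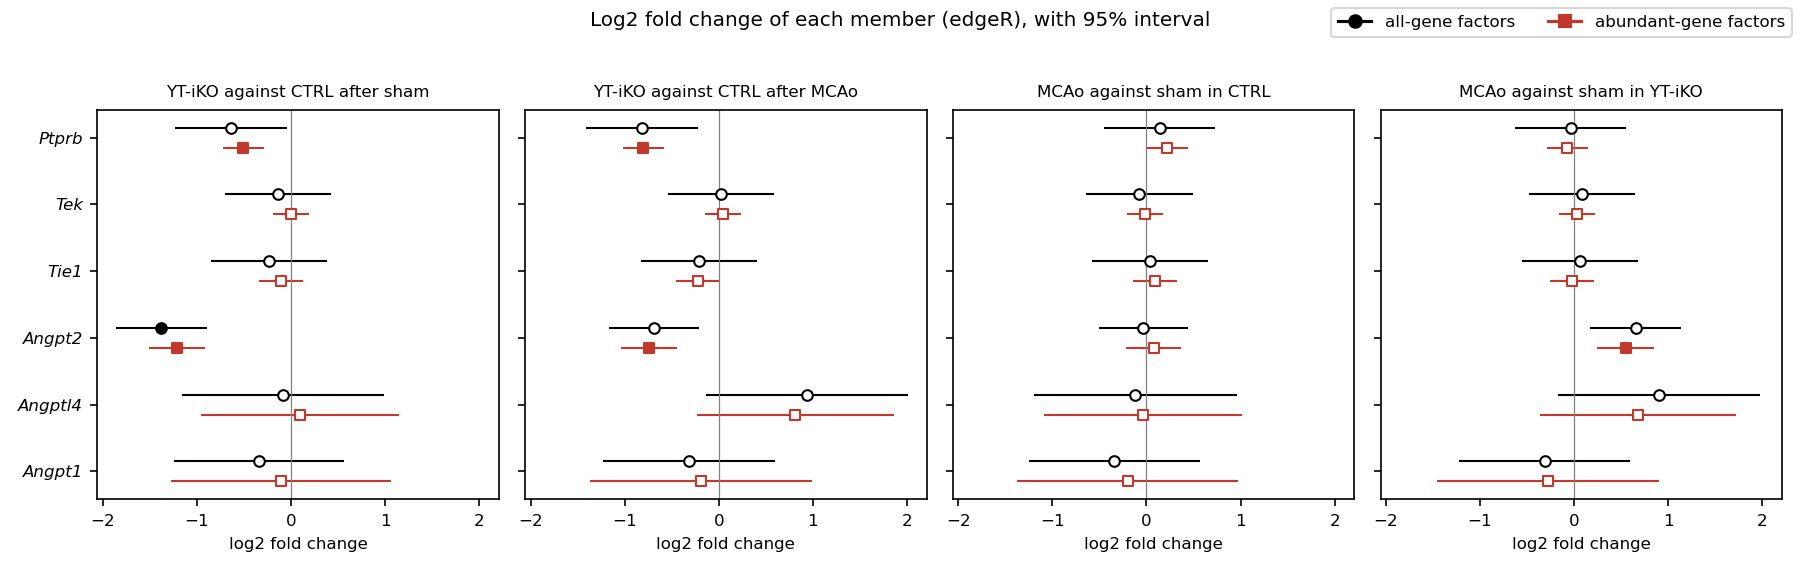
Log2 fold changes of the 6 members (x axis) with 95% intervals in 4 comparisons, from edgeR with all-gene factors (black circles) or abundant-gene factors (red squares). Filled symbols have an adjusted p under 0.1; Angpt2 after sham is filled on both scales, and Ptprb only with abundant-gene factors.

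Ratios within a library do not depend on its scaling factor, and they are given as a description without a test. The ratio of Ptprb to Tek per kilobase was 1.50 to 1.73 in CTRL sham and 1.67 to 2.04 in CTRL MCAo. It was 1.07 to 1.18 in YT-iKO sham and 0.960 to 1.17 in YT-iKO MCAo, below every CTRL library. The ratio in YT-iKO was 0.707 of that in CTRL after sham and 0.556 after MCAo. The ratio of Angpt2 to Tek was 0.0330 to 0.0544 in CTRL sham and 0.0136 to 0.0264 in YT-iKO sham, and it was 0.0352 to 0.0549 in CTRL MCAo and 0.0232 to 0.0301 in YT-iKO MCAo. Here too the genotypes did not overlap after either operation. The ratio of Tie1 to Tek overlapped between genotypes after either operation, from 0.404 in the lowest YT-iKO MCAo library to 0.587 in the highest CTRL MCAo library. The abundance of Ptprb and Angpt2 relative to the receptor was thus lower in YT-iKO, while that of Tie1 was not separated.

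**Figure D4:**
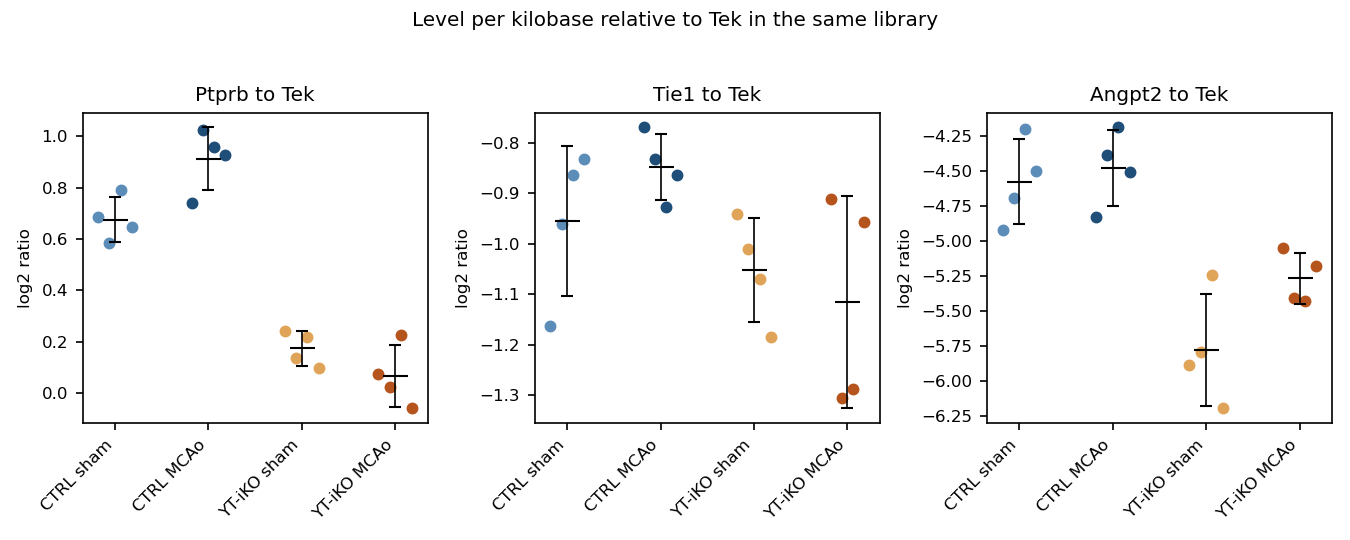
Log2 of the ratio of each gene to Tek per kilobase (y axis, not starting at 0) in the same library, by group (x axis), with points for libraries and bars for the mean ± SD of 4. For Ptprb and Angpt2 all YT-iKO points lie below all CTRL points of the same operation, and for Tie1 the genotypes overlap.

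Angptl4, the lipase inhibitor, was variable between libraries of 1 group and was not called. CTRL sham libraries had 8.94, 12.1, 26.3 and 15.0 CPM and CTRL MCAo libraries 22.8, 12.3, 11.9 and 10.3 CPM. YT-iKO sham libraries had 20.2, 13.3, 17.2 and 7.91 CPM. In YT-iKO MCAo, replicates 1 and 4 stood at 67.4 and 28.1 CPM, while replicates 2 and 3 were at 6.96 and 7.19 CPM, the lowest of all 16. YT-iKO differed from CTRL after MCAo by 0.94 on the log2 scale (95% interval -0.13 to 2.01, adjusted p = 1.00 by edgeR), and without YT-iKO MCAo replicate 1 it was -0.14. The MCAo response in YT-iKO was 0.90 (95% interval -0.17 to 1.97) and turned to -0.18 without that library. After sham the genotypes differed by -0.08 (95% interval -1.16 to 0.99), which became 0.10 with abundant-gene factors. The MCAo response in CTRL was -0.12 (95% interval -1.20 to 0.96).

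No member was called for MCAo against sham in CTRL, where 0.216% of all tested genes were called, in YT-iKO, where 0.318% were, or averaged over genotypes, where 1.23% were. With abundant-gene factors no member was called in CTRL against 1.83% of genes, Angpt2 alone in YT-iKO against 1.75%, and none on average against 5.13%. The difference of the MCAo response between genotypes was called for no member and for 0.00% of all genes by edgeR on either scale. At p under 0.05 before adjustment this difference held 116 of 31085 genes with edgeR and 265 of 37003 with DESeq2, which also called none. Both counts are below what chance alone would give at that threshold. Among the 6 members Angpt2 alone was below 0.05 with edgeR, and no member was with DESeq2.

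The wider pathway was described by 9 lists of 52 genes in all, counted without a test of the lists. With all-gene factors 3 genes were called for genotype averaged over operations, 2 lower and 1 higher, and 4 were called higher for MCAo averaged over genotypes. With abundant-gene factors 7 genes were called for genotype, namely Ptprb, Shc1, Tnip2 and Foxo1 beside the 3, and 12 were called for MCAo. Over all tested genes 0.280% and 1.23% were called in these comparisons with all-gene factors, and 1.79% and 5.13% with abundant-gene factors. The median log2 fold change of the 52 genes was -0.05 for genotype beside 0.09 over all tested genes, and 0.03 for MCAo beside 0.03. Angpt4, the third ligand, averaged 2.99 CPM and was not called in any of the 7 comparisons.

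Grb7, an adaptor that docks on activated Tie2, was lower in YT-iKO. With all-gene factors it was the 1 of 15 adaptors and kinases called for genotype averaged over operations, beside 0.280% of all tested genes. It measured 34.1 ± 7.33 CPM in CTRL sham, 30.3 ± 6.95 CPM in CTRL MCAo, 22.5 ± 2.01 CPM in YT-iKO sham and 19.5 ± 1.24 CPM in YT-iKO MCAo (SD, n = 4 each). Averaged over operations, its log2 fold change for genotype was -0.62 (SE 0.14, adjusted p = 0.0735 by edgeR). Of 16 fits with 1 library left out, 12 kept the call. The other 4 left out replicate 2 of CTRL sham, replicate 4 of CTRL MCAo, replicate 4 of YT-iKO sham and replicate 3 of YT-iKO MCAo, and the adjusted p reached 0.343. With abundant-gene factors 3 of the 15 were called for genotype, beside 1.79% of all tested genes. Grb7 had a log2 fold change of -0.51 (adjusted p = 0.0367 by edgeR), Shc1, an adaptor of receptor tyrosine kinases, -0.34 (adjusted p = 0.0125), and Tnip2, which binds an inhibitor of NF-kappaB signalling, 0.37 (adjusted p = 0.0521). Foxo1, a transcription factor held in check by Akt downstream of Tie2, had -0.32 (adjusted p = 0.0745) on that scale. For MCAo averaged over genotypes 5 of the 15 were called with abundant-gene factors, beside 5.13% of all tested genes, and none with all-gene factors, beside 1.23%. The PI3-kinase regulatory subunit Pik3r1 (0.26, adjusted p = 0.0219 by edgeR), Shc1 (0.26, adjusted p = 0.0307) and the kinase Akt2 (0.17, adjusted p = 0.0780) were higher. The PI3-kinase catalytic subunit Pik3cb (-0.32, adjusted p = 0.0337) and the adaptor Grb14 (-0.35, adjusted p = 0.0836) were lower.

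Among the integrin subunits that can bind angiopoietins, 2 of 4 were called higher after MCAo averaged over genotypes with all-gene factors, beside 1.23% of all tested genes called. Itga5, the alpha chain of the fibronectin receptor, had a log2 fold change of 1.17 (SE 0.24, adjusted p = 0.0134 by edgeR) and rose from 59.0 ± 6.02 to 121 ± 49.6 CPM in CTRL and from 63.0 ± 8.92 to 156 ± 90.2 CPM in YT-iKO. Itgb3, a beta chain that pairs with alpha v, had a log2 fold change of 0.96 (SE 0.19, adjusted p = 0.0104). Both calls were kept whichever library was left out. With abundant-gene factors Itgb1 was called too, with an edgeR log2 fold change of 0.41 and an adjusted p of 0.0240, beside 5.13% of all tested genes. Within single genotypes those factors also gave calls for Itga5 (1.07 in CTRL, adjusted p = 0.00950, and 1.15 in YT-iKO, adjusted p = 0.00495) and Itgb3 (0.91 in CTRL, adjusted p = 0.0589, and 0.98 in YT-iKO, adjusted p = 0.0369). Of all tested genes 1.83% were called in CTRL and 1.75% in YT-iKO with these factors. Itgav was not called with either set of factors. Some markers of other cell types rose in the same comparison, 4 of 56 with all-gene factors, beside 1.23% of all tested genes. With log2 fold changes and adjusted p by edgeR, they were the fibroblast genes Dcn (2.13, adjusted p = 0.00453) and Col1a2 (0.77, adjusted p = 0.0252), the astrocyte gene Gfap (0.80, adjusted p = 0.0368) and the platelet gene Itga2b (0.71, adjusted p = 0.0900). These were 2 of 5 fibroblast, 1 of 4 astrocyte and 1 of 4 platelet genes, and the others of these lists were not called. With abundant-gene factors 11 of the 56 were called, beside 5.13% of all tested genes. These included the same 4 genes and the pericyte genes Pdgfrb, Kcnj8, Abcc9 and Notch3, higher by 0.54 to 0.76. Rgs5 and Vtn of the pericyte list were not called. Of the endothelial genes, Pecam1 was higher by 0.36 and Kdr lower with a log2 fold change of -0.25. Flt4, from the lymphatic endothelial list, was higher by 0.27. It averaged 368 CPM, whereas Prox1 and Lyve1 of that list averaged 2.89 and 1.23 CPM, and neither of these was called. The part of these markers in the pathway results for MCAo was not tested.

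Mmp14, a membrane protease able to cleave Tie2, rose after MCAo by a log2 fold change of 0.99 (SE 0.25, adjusted p = 0.0643 by edgeR), at 5.46 ± 2.00 against 9.24 ± 3.27 CPM in CTRL and 5.69 ± 1.61 against 13.4 ± 6.78 CPM in YT-iKO. The call held in 7 of 16 fits with 1 library left out, and the adjusted p reached 0.163 in the others, which left out replicates 1, 2 or 3 of CTRL sham, 1 or 2 of CTRL MCAo, 1, 2 or 4 of YT-iKO sham, or 1 of YT-iKO MCAo. Svep1, a co-ligand of Tie1, averaged 6.91 CPM with a median of 53.7% of its counts at the level of the background, and it was not called.

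Lpl, the lipase that Angptl4 inhibits, was higher in YT-iKO (log2 fold change 1.29, SE 0.27, adjusted p = 0.0503 by edgeR) and after MCAo (1.04, SE 0.27, adjusted p = 0.0810), each averaged over the other factor. Its mean was 3.76 ± 0.738 CPM in CTRL sham, 5.90 ± 1.38 CPM in CTRL MCAo, 6.99 ± 2.11 CPM in YT-iKO sham and 18.9 ± 15.9 CPM in YT-iKO MCAo. The background made up a median of 41.1% of its counts. The study's gene lists from these libraries also hold Lpl, as higher in YT-iKO after MCAo, so its genotype direction is not independent evidence. The genotype call was lost in 7 of 16 fits with 1 library left out, namely replicates 1, 3 or 4 of CTRL sham, 1 or 4 of CTRL MCAo, or 1 or 3 of YT-iKO sham, with an adjusted p of up to 0.170. The MCAo call was kept in 5 of 16, those without replicate 1 of CTRL MCAo, 3 of YT-iKO sham or 2, 3 or 4 of YT-iKO MCAo, and the adjusted p reached 0.225 in the others. Of the 7 genes of the angiopoietin-like family, Angptl4 included, none was called with all-gene factors. With abundant-gene factors Angptl2 was called for MCAo averaged over genotypes (log2 fold change 0.56, adjusted p = 0.0796 by edgeR), beside 5.13% of all tested genes.

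**Figure D5:**
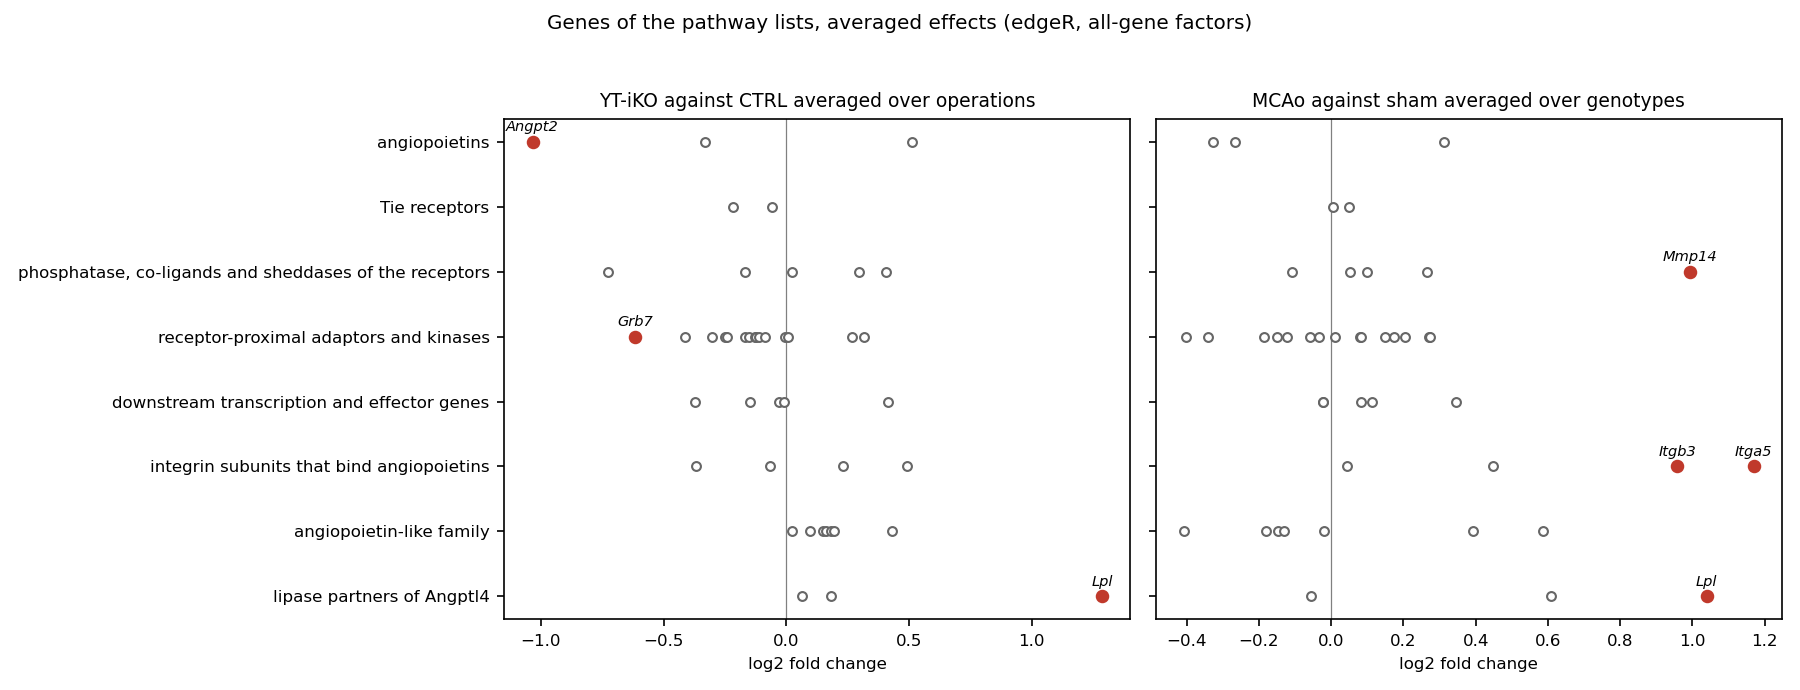
Log2 fold changes (x axis) of every gene of 8 of the 9 pathway lists (rows) for genotype averaged over operations (left) and MCAo averaged over genotypes (right), from edgeR with all-gene factors. Filled and named points have an adjusted p under 0.1, namely Angpt2, Grb7 and Lpl for genotype and Mmp14, Itgb3, Itga5 and Lpl for MCAo.

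Among genes averaging 10 CPM or more, the 3 whose log2(CPM + 1) followed each member most closely over the 16 libraries were taken as a description. These correlations share the libraries' scale and groups and carry no p. Angpt2 was followed by Vash1, which encodes an angiogenesis inhibitor made by endothelial cells, by Cp, which encodes ceruloplasmin, and by Rnase4, with r of 0.958, 0.955 and 0.931. Ptprb was followed by Robo4, an endothelial guidance receptor, and by Cbx5 and Tm6sf1, with r of 0.968, 0.960 and 0.958. With abundant-gene factors the 3 genes nearest Ptprb were Yap1, Wwtr1 and Slc16a1, with r of 0.947, 0.945 and 0.943. Tek was followed by Stim2, She and Tbc1d30 with r of 0.991, 0.984 and 0.981, and Stim2 was also nearest with abundant-gene factors at 0.902. Tie1 was followed by Tbc1d13, Tmem259 and Nbr1 with r of 0.987, 0.982 and 0.982. Angptl4 was followed by Trp53inp1, Net1 and Itpripl1 with r of 0.909, 0.891 and 0.881, and Angpt1, near background, by Cacna1d, Celsr2 and Pitpnm3 with r of 0.764, 0.732 and 0.690.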

How the data were processed

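RNA from sorted bECs was amplified with a SMART-Seq kit and sequenced paired-end. The authors mapped reads with STAR 2.7.8a to GRCm38 with GENCODE M12, and the table they deposited holds raw counts per gene, without normalization, for 37003 genes. Each of these had 6 or more counts in at least 3 libraries, so genes with fewer reads are not analysed here. The counting program is not given in the sources used here. The replicates are pools of mice, so p-values measure the spread between pools.

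Counts were tested with edgeR 4.0.16 in R 4.3.3 by the quasi-likelihood test, with TMM factors, filterByExpr (minimum count 10), all 4 groups in 1 model and Benjamini-Hochberg adjustment over 31085 genes; 7 comparisons were made, including 2 averaged ones and the difference of the MCAo responses. The members were also tested on log2(CPM + 1) by exact permutation. The even background was read from 1466 chemosensory receptor genes on autosomes. Positions and exon lengths come from GENCODE M21, which held 36861 of the 37003 gene identifiers. The fits were tested on simulated data.

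The genes reported are the members, Yap1, Wwtr1, every gene of the pathway lists called in at least 1 comparison, and the 3 genes most like each member; genes named beside these (Angpt4, Svep1, Mcph1, Gm17473, Itgav) were added for context. Itgb1, Shc1, Tnip2, Foxo1, Pik3r1, Akt2, Pik3cb, Grb14 and Angptl2 were added because they were called with abundant-gene factors, and markers because they were called on either scale. A called gene of the pathway lists is not reported here, and its list is left out of the plot of the lists. The members and lists were chosen with earlier results of these data known. Alternatives were DESeq2 1.42.0, RLE factors, abundant-gene factors, other filters, an adjusted p under 0.05, fits of only the groups compared, a replicate block, a pseudocount of 0.5, background taken off and each library left out. The likeness, list medians and marker levels and calls with abundant-gene factors were chosen after the data had been seen.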

Additional observations from a re-analysis of the deposited data

Results flagged for a closer look

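In 24 groups of 4 values (6 members in 4 groups), 2 held a library whose gap to its nearest neighbour, as a share of the group's range, was above Dixon's 95% critical value for 4 values. Chance flags about 1 in 20 groups. Angptl4 in CTRL MCAo replicate 1 was at 22.8 CPM, with the next library at 12.3 CPM. Tek in YT-iKO sham replicate 3 was at 657 CPM, with the next library at 1061 CPM, and with abundant-gene factors the same library was at 923 CPM. That library also had the highest background of the 16, at 0.421 CPM per kilobase, and the part of this in the low Tek value was not tested.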

How the results depend on the processing

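With abundant-gene factors 2 members were called between genotypes after sham, 2 after MCAo, 2 on average and 1 for MCAo in YT-iKO, and testing only genes averaging 10 CPM or more gave the same 4 counts plus 1 member, Angpt2, for MCAo averaged over genotypes. Under that filter 5 members were tested, and 2.33%, 4.22%, 12.2%, 10.1% and 24.1% of the 9123 genes were called in these 5 comparisons. DESeq2 called 1 member after MCAo and 2 on average, beside 0.211% and 0.581% of all genes, and requiring CPM above 1 in 4 libraries called 2 on average, beside 0.627%. The cause of these changes was not tested. Leaving out 1 library at a time gave 0 to 1 members called after sham, 0 of them without YT-iKO sham replicate 4.

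Some fold changes, none of them called, changed sign. On the log2 scale, abundant-gene factors and the test of genes averaging 10 CPM or more gave, in that order, 0.078 and 0.077 for Angpt2 and MCAo in CTRL, 0.098 and 0.099 for Angptl4 and genotype after sham, 0.019 each for Tek and genotype on average, and -0.024 each for Tie1 and MCAo in YT-iKO. For Tek and genotype after MCAo the value was -0.0068 with DESeq2, -0.010 with RLE factors and -0.042 without a filter. Fits of only the groups compared gave -0.0076 for Tek and -0.043 for Tie1, both for MCAo in YT-iKO, where Tie1 had -0.013 without a filter.

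Leaving out 1 library moved the following across 0. Tek ranged from -0.19 to 0.021 for genotype after sham, -0.18 to 0.12 after MCAo and -0.15 to 0.0080 on average, and from -0.22 to 0.030 for MCAo in CTRL and -0.13 to 0.18 in YT-iKO. Tie1 ranged from -0.14 to 0.15 for MCAo in CTRL and -0.21 to 0.21 in YT-iKO. Ptprb ranged from -0.21 to 0.051 for MCAo in YT-iKO and -0.036 to 0.097 for MCAo on average, and Angpt2 from -0.12 to 0.093 for MCAo in CTRL. Angptl4 ranged from -0.27 to 0.29 for genotype after sham, -0.14 to 1.26 after MCAo and -0.11 to 0.59 on average. For MCAo it ranged from -0.38 to 0.25 in CTRL, -0.18 to 1.22 in YT-iKO and -0.15 to 0.56 on average, and for the difference of the responses from -0.061 to 1.35.

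Libraries that share a replicate number correlated with a median r of 0.259 in their deviations over 24 pairs, of which 17 were above 0.1, beside -0.128 over 72 pairs with different numbers, of which 27 were above 0.1, and 9 of 16 libraries correlated best with one of their own number. The numbers were to be read as pairs only if every same-number pair was above 0.1, so they were not. With a replicate block edgeR called 40 genes of all tested in place of 30 after sham, 34 in place of 22 after MCAo, 149 in place of 87 for genotype on average and 119 in place of 67 for MCAo in CTRL. Under this block 1 member was called after sham and 1 on average, and Tie1 for MCAo in CTRL was -0.044 in place of 0.039; no member's call changed. Depth limits Angpt1, with 10 to 51 counts a library.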
